A study of Mus musculus with 12 samples.

Results

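The forkhead genes encode transcription factors that share a winged-helix DNA-binding domain and are named Fox, a letter and a number. They were taken as the protein-coding genes of the GENCODE M21 annotation of the mouse genome (GRCm38) whose symbol is Fox, 1 letter and digits, which gave 44 of 21951 protein-coding genes. Chromatin accessibility was followed in a window around each gene, the gene body extended by 20 kb on each side. Merging the peak lists of the 4 groups gave 273256 intervals, of which 650 overlapped a forkhead window and 14 lay in more than 1 of these windows.

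The assay was Omni-ATAC-seq, in which a transposase cuts open DNA, with 12 libraries of 50000 sorted cells each. The cells were mouse embryonic fibroblasts (MEFs, strain 129, from E12.5 embryos) that carry Cas9, a Nanog reporter (TNG) and a doxycycline-inducible MKOS cassette for MYC, KLF4, OCT4 and SOX2 with an mOrange reporter. These cells descend from 1 embryonic stem cell line of that strain, but the embryos were chimeras made with host morulae, so host cells can be among the fibroblasts. Reprogramming cultures were seeded together with wild-type MEFs of strain 129, which the MEF cultures were not, and were sorted for mOrange. Every culture was transduced with a guide RNA, either a non-targeting one (control) or one against Zfp266 (KO), a zinc finger gene, and harvested after 96 h. The 3 MEF control and 3 MEF KO libraries came from cells without factor induction, and the 3 reprogramming control and 3 reprogramming KO libraries from mOrange+ cells after 72 h with doxycycline (300 ng/ml) and vitamin C (10 µg/ml). The reprogramming medium also held LIF (leukaemia inhibitory factor), while the MEF medium held FGF2 and heparin instead, so reprogramming and MEF groups differ in medium as well. Loss of the ZFP266 protein cannot be read from accessibility, so the labels were not checked by the targeted gene.

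Forkhead factors act as switches of development and metabolism. FOXA factors can bind closed chromatin and open it, FOXO factors are held in the cytoplasm when insulin and AKT signalling is active, FOXP factors are mostly repressors, FOXC, FOXF and FOXD1 pattern mesenchyme, FOXD3 acts in the early embryo and in stem cells, and FOXH1 carries Nodal signals with SMAD partners. Fibroblasts are mesenchymal cells and express many of these genes, while others, such as those of ciliated, ear or thymic epithelium, belong to lineages that fibroblasts have left.

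The merged peak lists held 161687 to 170135 peaks. There was 1 list per group, called on the merged replicates, so fold enrichment over background (the fold of the broad peak over local background) and the presence of a peak have no replicate error, and no test was made on them. Read counts per library were used only for the 480 MEF and 1608 reprogramming intervals that the authors listed as different between KO and control. Libraries held 33936 to 86490 reads in the listed MEF intervals and 141616 to 324141 in the listed reprogramming intervals. Replicates were distinct beyond sampling error in each pair (chi-square statistic of 1.13 to 1.69 per degree of freedom), and nothing in the labels says which cultures they came from, so p-values measure the spread between these libraries. In bulk cells, fewer open cells and less opening per cell cannot be told apart.

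Start-site peaks of cell type markers were checked against the labels. The 10 fibroblast markers had peaks at 10, 10, 9 and 9 starts in MEF control, MEF KO, reprogramming control and reprogramming KO, with summed folds of 29.3, 28.4, 24.7 and 25.0. The 7 pluripotency markers had 5, 6, 6 and 6, with summed folds of 20.4, 22.0, 25.7 and 24.7. Of these, Zfp42 went from no start-site peak in MEF control to a fold of 8.75 in reprogramming control and Nanog from none to 2.66, Pou5f1 went from 2.23 to 3.03 and Sox2 from 3.82 to 3.91, while Dppa5a went from 4.57 to none, Esrrb from 4.36 to 2.74 and Utf1 from 5.45 to 4.65. Without Zfp42 the summed folds were 20.4, 20.2, 17.0 and 15.8. The 5 epithelial markers had peaks in every group (summed folds 16.7, 16.8, 14.1 and 13.3), and the 4 endothelial markers had 4, 4, 3 and 3 (17.7, 18.2, 11.8 and 11.6). Of the 4 blood markers 1 had a peak in the MEF groups and 2 in the reprogramming groups (summed folds 1.92, 1.83, 4.56 and 4.46), and Ptprc and Cd3e had none in any group. The part of these differences in the results on reprogramming against MEF was not tested.

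The first question was whether loss of Zfp266 altered accessibility around the forkhead genes. In MEFs none of the 480 listed intervals fell in a forkhead window, beside 0.175% of all intervals that the edgeR retest called more open in KO and 0.000366% more closed. During reprogramming 3 of the 1608 listed intervals did, in introns of Foxn2, Foxp2 and Foxp1, and all 3 were more open in KO. That is 0.462% of the 650 intervals, near the 0.557% of all 273256 intervals called more open (0.0315% were more closed). Because these same libraries chose the listed intervals, the retest (edgeR quasi-likelihood, two-sided, Benjamini-Hochberg over 273256 intervals) is not independent evidence.

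Foxn2 encodes a broadly expressed forkhead factor of little-known function. The interval at chr17:88468141-88469046 (GRCm38), 27859 bp downstream of the Foxn2 start, had normalised read counts of 24.6, 29.0 and 19.6 in the reprogramming control libraries and 118.9, 121.8 and 112.7 in the KO libraries. The lowest KO library lay 83.7 above the highest control library. The means were 24.4 ± 4.73 and 117.8 ± 4.63 (SD, n = 3 each), a log2 difference of 2.24 with a standard error of 0.18 (edgeR adjusted p = 2.37e-25).

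Foxp2 encodes a repressor best known from speech and motor circuits. Its interval, chr6:14908696-14908984, 7363 bp downstream of the nearest annotated start, held 15.6, 11.8 and 13.1 normalised reads in control and 43.9, 27.1 and 50.8 in KO. The KO libraries varied more than the controls, with the second of them at 27.1, still above every control library. The log2 difference was 1.58 with a standard error of 0.28 (edgeR adjusted p = 6.04e-06), between means of 13.5 ± 1.96 and 40.6 ± 12.2 (SD, n = 3 each).

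Foxp1, a related repressor that acts in immune, heart and stem cells, held the remaining interval, chr6:99431266-99432425, 3499 bp downstream of the nearest start and within the annotated gene Gm20696 as well. Its normalised counts were 21.2, 20.9 and 30.0 in control and 54.9, 67.7 and 54.0 in KO, again without overlap. The means were 24.0 ± 5.18 and 58.8 ± 7.65 (SD, n = 3 each), and the log2 difference was 1.31 with a standard error of 0.22 (edgeR adjusted p = 1.37e-06). Scaling on the listed intervals alone, of which nearly all were more open in KO, left Foxn2 with a log2 difference of 1.27 (edgeR with TMM factors, adjusted p of 2.25e-08) and ended the calls of Foxp2 and Foxp1 (both adjusted p = 1).

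**Figure D1:**
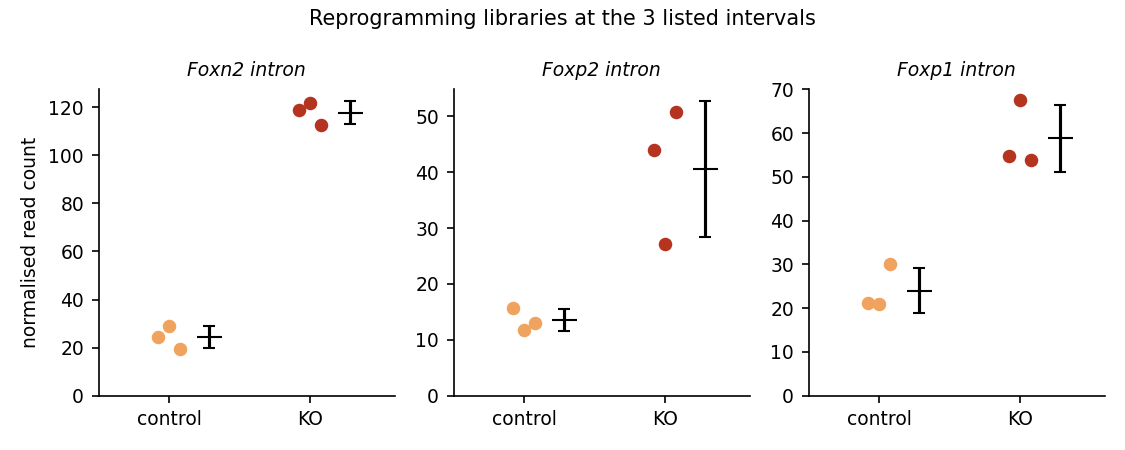
Normalised read counts (vertical axes, from 0) of the 3 reprogramming control and 3 reprogramming KO libraries at the listed intervals in Foxn2, Foxp2 and Foxp1. Points are libraries, and the bars beside them give the mean ± SD. In each panel the KO libraries lie above the control libraries, with the widest gap at Foxn2.

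In the peak lists all 3 intervals had a peak in reprogramming KO (folds 3.48 in Foxn2, 3.48 in Foxp2 and 3.85 in Foxp1) and none in reprogramming control or MEF control. Foxp1 also had a weak peak in MEF KO, with a fold of 1.71 and a −log10 q of 1.10. The sequences are shown because these are the only forkhead intervals with library counts. Each stretch is the plus strand of GRCm38.p6, whole for Foxp2 (289 bases) and the central 300 bases for the others, at chr17:88468444-88468743, chr6:14908696-14908984 and chr6:99431696-99431995. Capitals mark matches to any of 5 short motifs searched on both strands, namely TGTTTAC (forkhead), TGANTCA (AP-1), CATTGTT (SOX), ATGCAAA (OCT) and GGGNGTG (KLF).
Foxn2: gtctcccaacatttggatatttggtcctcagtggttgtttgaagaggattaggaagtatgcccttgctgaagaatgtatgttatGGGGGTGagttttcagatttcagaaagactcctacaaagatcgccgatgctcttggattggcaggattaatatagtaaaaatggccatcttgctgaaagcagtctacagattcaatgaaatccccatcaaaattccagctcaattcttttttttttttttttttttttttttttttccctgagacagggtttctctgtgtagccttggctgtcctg
Foxp2: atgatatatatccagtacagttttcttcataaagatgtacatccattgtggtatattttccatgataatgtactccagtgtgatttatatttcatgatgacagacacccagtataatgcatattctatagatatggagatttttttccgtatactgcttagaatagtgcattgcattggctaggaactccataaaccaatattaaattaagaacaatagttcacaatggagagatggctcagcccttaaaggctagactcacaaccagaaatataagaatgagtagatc
Foxp1: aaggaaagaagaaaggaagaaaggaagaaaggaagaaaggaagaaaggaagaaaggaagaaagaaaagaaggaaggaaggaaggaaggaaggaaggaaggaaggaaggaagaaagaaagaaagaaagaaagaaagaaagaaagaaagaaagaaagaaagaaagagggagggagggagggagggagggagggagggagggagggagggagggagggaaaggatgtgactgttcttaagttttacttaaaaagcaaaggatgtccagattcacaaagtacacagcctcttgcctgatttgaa

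The Foxn2 stretch held 1 KLF match and the Foxp2 and Foxp1 stretches none of the 5 motifs. Repeats masked in the reference made up 59.8% of the Foxn2 interval, 10.4% of the Foxp2 interval and 47.8% of the Foxp1 interval, whose centre is a run of short purine-rich repeats. The median over all merged intervals was 14.1% and over the listed reprogramming intervals 34.0%.

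Peaks present in 1 list and absent in the other were also counted between KO and control. Reprogramming KO had a peak and control none (gained) at 44 of 650 forkhead intervals (6.77%, 95% Wilson interval 5.08 to 8.97, counting error only), beside 4.96% of all intervals, and the reverse (lost) held at 48 (7.38%, 5.61 to 9.66), beside 7.27%. MEF KO gained 25 (3.85%, 2.62 to 5.62) and lost 33 (5.08%, 3.64 to 7.04), beside 3.65% and 4.79%. Most of these peaks were weak, since the median −log10 q was 2.01 for gained and 2.05 for lost in reprogramming, against 11.7 where both lists had a peak. A −log10 q of at least 5 was reached by 12 of the 44 gained (27.3%, beside 16.4% of all gained intervals) and 2 of the 48 lost (4.17%, beside 17.98%). In reprogramming, 32 of 44 genes (72.7%, beside 64.8% of the windows of all protein-coding genes) had an interval gained or lost, and 21 in MEF (47.7%, beside 49.2%).

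The strongest peaks present in reprogramming KO and absent in reprogramming control were the 3 listed ones, and those lost with the highest fold lay in introns of Foxp1 (2.52 in control), Foxk1 (2.31) and Foxn3 (2.29). Foxk1 encodes a factor that acts on glycolysis and autophagy, and its interval had folds of 2.50 and 2.51 in the MEF lists. In MEF the highest folds of peaks present in KO and absent in control were 2.73 in a Foxp1 intron, 2.37 upstream of Foxi3 and 2.36 in a Foxp2 intron. Those present in MEF control and absent in MEF KO were at 3.05 in a Foxp1 intron, 2.62 in a UTR exon of Irf2bp1 within the Foxa3 window, and 2.37 between Foxd2 and Foxe3, which share a stretch of chromosome 4. The interval between Foxd2 and Foxe3 also had peaks in reprogramming control (3.29) and KO (3.16), and the Irf2bp1 one in reprogramming control (2.03).

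Where both lists had a peak, folds seldom differed by 1.5-fold between KO and control. In MEF, 0 of 375 shared forkhead intervals differed by 1.5-fold in either direction, beside 0.084% higher and 0.102% lower among all shared intervals. In reprogramming 1 of 376 was higher (beside 0.202%) and 1 lower (beside 0.142%). The higher one, in a Foxk1 intron, had folds of 1.83 in control and 2.78 in KO, and 3.28 and 3.43 in the MEF groups. The lower one, in a Foxp2 intron, had 4.18 in control and 2.74 in KO, with no peak in MEFs. Both were chosen after their values were seen.

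The second question was how accessibility around the forkhead genes differed between reprogramming cells and MEFs. In control cells 187 of 650 forkhead intervals were gained (28.8%, Wilson interval 25.4 to 32.4), beside 33.9% of all intervals, and 171 were lost (26.3%, 23.1 to 29.8), beside 32.4%. In KO cells 195 were gained (30.0%, 26.6 to 33.6), beside 32.1%, and 175 lost (26.9%, 23.7 to 30.5), beside 31.7%. Peaks in all 4 groups made up 212 forkhead intervals (32.6%, beside 24.7% of all). The lists of both reprogramming groups and neither MEF group held 155 intervals (23.8%, beside 27.4% of all), and those of both MEF groups and neither reprogramming group 138 (21.2%, beside 27.5%).

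Of the 237 forkhead intervals with a peak in both control lists, 12 were higher by at least 1.5-fold during reprogramming (5.06%, beside 9.66%) and 56 lower (23.6%, beside 24.9%). All shared intervals had a median log2 ratio of -0.22 and those of the forkhead windows -0.28. After centring on the median of all shared intervals, 27 were higher and 36 lower, beside 15.6% and 14.3% of all. Between the KO groups 17 of 225 shared intervals were higher (beside 10% of all) and 49 lower (beside 23.8%), and after centring 24 were higher and 24 lower (10.7% each, beside 15.7% and 14.03%).

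**Figure D2:**
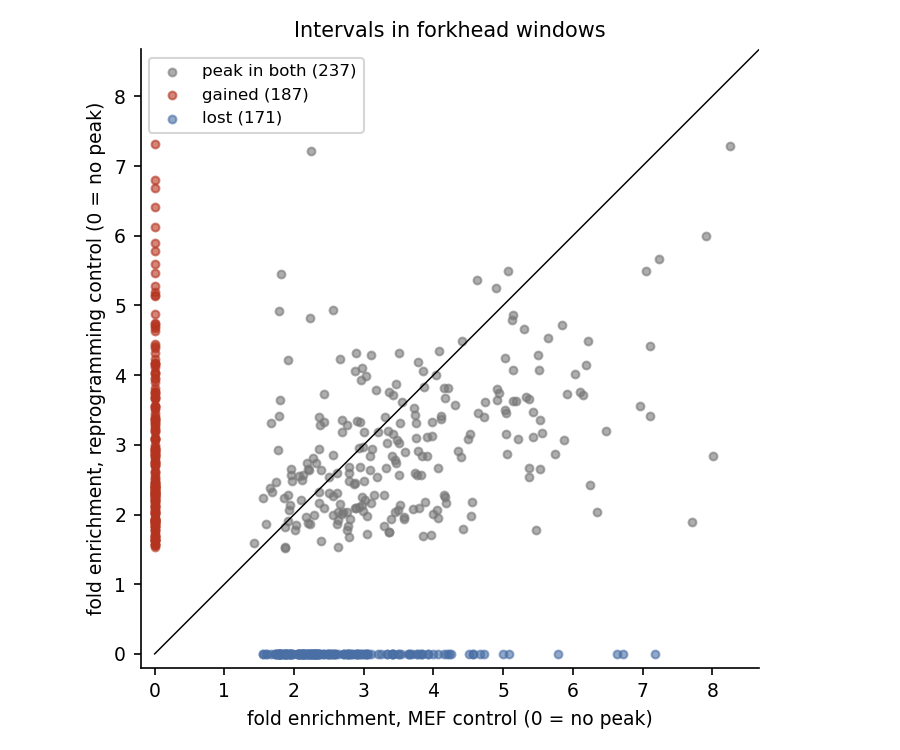
Fold enrichment of the 650 forkhead intervals in MEF control (horizontal axis) and reprogramming control (vertical axis), with 0 for no peak and a line of equal fold. The 187 gained intervals stand on the vertical axis and the 171 lost ones on the horizontal axis, and most of the 237 shared ones lie below the line.

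Most of the difference lay away from the starts. Within 1000 bp of a protein-coding start, 4 of 74 forkhead intervals were gained and 2 lost, against 183 and 169 of 576 farther away (31.8% and 29.3%). Over all intervals the shares were 10.2% gained and 8.41% lost near a start, and 35.8% and 34.3% farther away, a split in the same direction. By their midpoints 372 of the 650 intervals lay in introns, 174 between genes, 65 in promoters, 27 in UTR exons and 12 in other exons.

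The strongest gained interval was in an intron of Foxn3, a checkpoint-related repressor, at chr12:99548397-99549072. Its fold was 7.32 in reprogramming control and 6.61 in KO, with no peak in either MEF group. A second gained interval lay 13459 bp upstream of Foxn3 (6.13 and 6.15), and another in one of its UTR exons (5.78 and 4.44). Foxn3 also lost an intronic interval with folds of 4.73 and 4.70 in the MEF groups, and over the gene's window 19 intervals were gained and 32 lost.

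Next in fold was chr4:114886260-114887291, between genes and 22097 bp downstream of Foxd2, a mesenchymal factor, with 6.80 in reprogramming control and 7.03 in KO. The other strongest gained intervals lay 90675 bp from the start of Foxo1 (6.68 and 6.54), 3555 bp upstream of Foxi2 (6.41 and 5.73), 18427 bp downstream of Foxd3 (5.89 and 4.78), 14986 bp upstream of Foxi1 (5.59 and 6.32), in a Foxj3 intron (5.47 and 5.41) and in a Foxi1 UTR exon (5.28 and 5.17). None of them had a peak in a MEF list. The 5 strongest in KO cells were all among these.

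Of the 10 intervals lost with the highest folds 5 lay in introns of Foxp1 or Foxp2. An intron of Foxp2 at chr6:15256961-15258238 had folds of 7.18 in MEF control and 6.67 in MEF KO and no peak during reprogramming, and another Foxp2 intron had 5.79 and 5.76. An intronic Foxp1 interval at chr6:99392409-99393177 had 6.72 and 5.89, and 2 more in Foxp1 had 4.67 and 4.47, and 4.57 and 3.82. The others were 23677 bp downstream of Foxd1 (6.63 and 5.75), in introns of Foxj3 (5.08 and 4.69), Foxk2 (5.00 and 5.41) and Foxn3, and 9138 bp upstream of Foxe3, a lens factor (4.56 and 4.81). Between the KO groups the strongest lost interval was a further one in Foxp2, at chr6:15321183-15322122, with folds of 7.71 in control and 7.58 in KO fibroblasts, 1.89 in reprogramming control and no peak in reprogramming KO.

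The central 300 bases of the strongest pair on each side are shown, since they carry the largest folds, with the motif matches in capitals as above. They come from the plus strand of GRCm38.p6 at chr12:99548585-99548884, chr4:114886626-114886925, chr6:15257450-15257749 and chr6:99392643-99392942.
Foxn3 gained: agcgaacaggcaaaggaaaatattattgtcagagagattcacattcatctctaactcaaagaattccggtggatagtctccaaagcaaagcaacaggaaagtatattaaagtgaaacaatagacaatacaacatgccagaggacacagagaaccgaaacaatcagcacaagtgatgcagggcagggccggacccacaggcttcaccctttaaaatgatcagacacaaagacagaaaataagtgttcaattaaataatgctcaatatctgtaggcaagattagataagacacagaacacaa
Foxd2 gained: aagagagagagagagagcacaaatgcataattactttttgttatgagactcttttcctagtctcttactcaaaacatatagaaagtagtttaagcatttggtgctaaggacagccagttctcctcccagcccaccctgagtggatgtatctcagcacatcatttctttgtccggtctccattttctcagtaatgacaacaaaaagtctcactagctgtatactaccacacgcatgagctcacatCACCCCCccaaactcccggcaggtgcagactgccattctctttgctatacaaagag
Foxp2 lost: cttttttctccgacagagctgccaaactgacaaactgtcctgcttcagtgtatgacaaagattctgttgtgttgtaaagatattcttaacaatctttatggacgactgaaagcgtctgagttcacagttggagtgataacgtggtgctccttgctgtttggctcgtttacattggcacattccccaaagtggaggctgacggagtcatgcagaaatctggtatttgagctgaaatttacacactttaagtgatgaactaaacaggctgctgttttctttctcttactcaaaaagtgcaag
Foxp1 lost: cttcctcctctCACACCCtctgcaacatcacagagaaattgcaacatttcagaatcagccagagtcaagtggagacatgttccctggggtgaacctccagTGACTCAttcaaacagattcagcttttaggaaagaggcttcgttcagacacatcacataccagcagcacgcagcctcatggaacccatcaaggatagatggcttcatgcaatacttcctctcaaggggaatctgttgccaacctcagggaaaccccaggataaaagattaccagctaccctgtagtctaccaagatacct

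The Foxd2 stretch held 1 KLF match, the Foxp1 stretch 1 AP-1 and 1 KLF match, and the Foxn3 and Foxp2 stretches none. Over the gained forkhead intervals the AP-1 motif was present in 20 of 187 (10.7%, Wilson interval 7.03 to 15.9) and over the lost ones in 42 of 171 (24.6%, 18.7 to 31.5). The same shares over all merged intervals were 14.8% of gained and 31.0% of lost. The SOX motif was in 16 gained (8.56%) and 6 lost forkhead intervals (3.51%), beside 8.91% and 5.52%, and the KLF motif in 46 (24.6%) and 29 (17.0%), beside 27.6% and 14.7%.

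The OCT motif was in 7 gained (3.74%) and 6 lost forkhead intervals (3.51%), beside 7.70% and 6.66%. The forkhead motif itself was in 6 gained (3.21%) and 6 lost (3.51%), beside 4.13% and 4.94%. Matches are counts of letters only, and a SOX match can run into a forkhead match. Mean GC content was 47.0% in gained and 46.0% in lost forkhead intervals, against 54.7% where all 4 groups had a peak. Over all merged intervals it was 44.1%, 44.1% and 50.4%. The part of GC content in the motif shares was not tested.

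**Figure D3:**
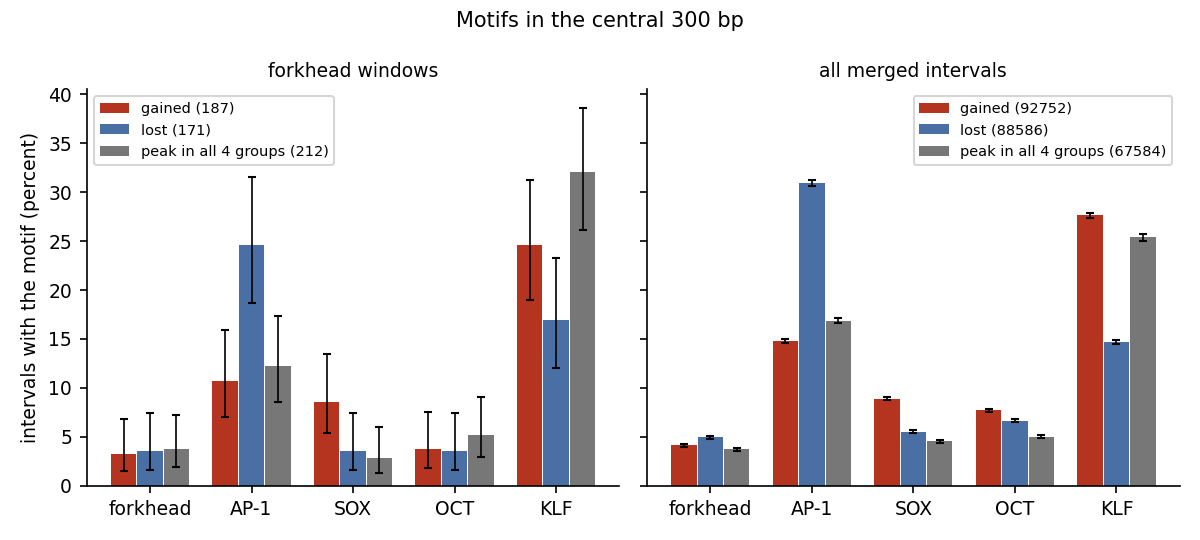
Percent of intervals that hold each motif in their central 300 bp (vertical axis), for intervals gained, lost and with a peak in all 4 groups, in forkhead windows (left) and among all merged intervals (right). Error bars are 95% Wilson intervals, which cover counting error only. In forkhead windows AP-1 stood at 10.7% of gained and 24.6% of lost intervals.

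By gene, 40 of the 44 had at least 1 gained interval (90.9%, beside 86.6% of the windows of all protein-coding genes) and 33 at least 1 lost (75.0%, beside 71.7%). There were more gained than lost in 23 (52.3%, beside 56.7%), more lost in 12 (27.3%, beside 25.0%) and equal numbers in 9 (20.5%, beside 18.3%). The 5 windows with the most intervals held 302 of the 650, so a few windows weigh heavily in counts over the family. The longest genes, Foxp1, Foxp2 and Foxn3, had 132, 47 and 72 intervals in their windows. Beside the 33.9% gained and 32.4% lost of all intervals, the FoxP windows gained 64 and lost 69 of 209 (30.6% and 33.0%), the FoxO windows 14 and 19 of 62 (22.6% and 30.6%), the broadly expressed group (Foxj2, Foxj3, Foxk1, Foxk2, Foxm1, Foxn2 and Foxn3) 46 and 43 of 158 (29.1% and 27.2%), the mesenchymal group 17 and 15 of 74 (23.0% and 20.3%), and the restricted group 34 and 22 of 111 (30.6% and 19.8%). The FoxA windows gained 9 and lost 2 of 26 (34.6% and 7.69%), and those of Foxd3 and Foxh1 together 4 and 1 of 15 (26.7% and 6.67%).

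The windows that follow were singled out after their values were seen. Foxi1, a regulator of ion-transporting cells of the inner ear and kidney, had peaks in 1 interval in each MEF group and in all 6 in both reprogramming groups. Foxr2, on the X chromosome, had 1 in each MEF group and 5 in both reprogramming groups, and the peak present throughout lay at the start of another gene, Rragb. Foxd1, a marker of stromal progenitors, had 3 in each MEF group and 6 in each reprogramming group. Foxn2 had 5 and 6 in the control and KO fibroblasts, and 9 and 12 in the reprogramming cells.

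In the other direction, Foxo3, a stress and longevity factor, had 21 in each MEF group, 12 in reprogramming control and 13 in KO, and Foxn3 had 49, 46, 36 and 33. Foxp1, the longest window, had 83, 82, 76 and 76. Foxl2 and Foxo4 had no interval gained or lost in any comparison, with 6 and 4 intervals. In all, 27 windows held another protein-coding gene, so an interval in a window need not belong to the forkhead gene.

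**Figure D4:**
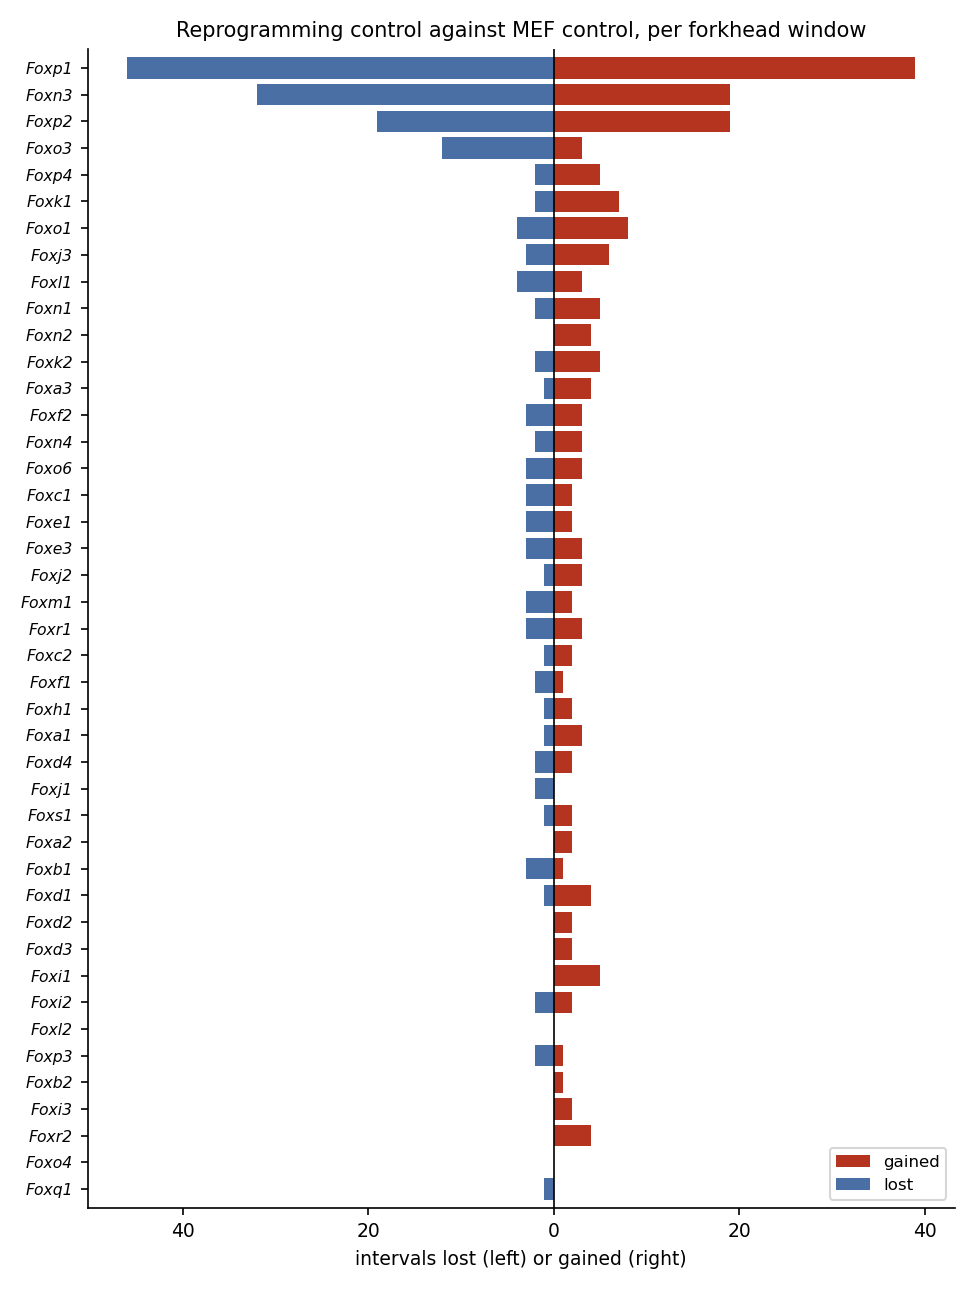
Number of intervals in 43 of the 44 forkhead windows lost (left of 0) and gained (right of 0) in reprogramming control against MEF control, with genes ordered by the number of intervals in the window. Foxp1 gained 39 and lost 46, Foxn3 gained 19 and lost 32, and Foxo3 gained 3 and lost 12.

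The third question was whether the forkhead genes had an open start site. A peak within 1000 bp of a start of a protein-coding transcript was present for 38 of 44 genes in MEF control (86.4%, Wilson interval 73.3 to 93.6), 38 in MEF KO, and 39 and 40 in the reprogramming control and KO groups. Over all protein-coding genes the share was 72.7% to 73.3%. It was higher still in 2 other families of developmental factors, at 97.4% to 100% of 39 Hox genes and 100% of 19 Sox genes. The median fold of these peaks in MEF control was 3.56 for forkhead genes, against 4.86 over all genes, 2.64 for Hox and 3.22 for Sox genes. In 37 forkhead genes the start-site peak was present in all 4 groups, and Foxq1, Foxh1 and Foxr2 had none in any within that distance. In 4 of the 44 genes, Foxa3, Foxm1 and Foxp3 among them, the start-site peak also held the start of another gene. Foxq1 had a peak farther away in every group, with the interval's midpoint 2786 bp downstream of its start. The folds there were 3.73, 3.61, 3.43 and 3.34 in MEF control, MEF KO, reprogramming control and reprogramming KO. That midpoint also lay within 1000 bp of the start of another gene, A530084C06Rik.

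Foxi1 was the forkhead gene with a start-site peak in both reprogramming groups and in neither MEF group, with folds of 3.10 in control (−log10 q 16.9) and 2.51 in KO (9.01). All protein-coding genes gained a start-site peak at 4.04% in reprogramming control. The Foxi1 promoter of RefSeq (GRCm38.p6, minus strand, chr11:34208040-34208339), shown because it is this start that gained the peak, held none of the 5 motifs.
Foxi1 promoter: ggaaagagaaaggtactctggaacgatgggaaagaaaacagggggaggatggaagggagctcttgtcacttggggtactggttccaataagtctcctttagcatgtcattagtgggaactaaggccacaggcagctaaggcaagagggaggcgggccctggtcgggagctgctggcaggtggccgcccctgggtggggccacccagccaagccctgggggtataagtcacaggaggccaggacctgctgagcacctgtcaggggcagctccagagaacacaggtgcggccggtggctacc

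RefSeq promoters were matched for 28 of the 44 genes, with 33 sequences of 300 bases. Of these 12 held the KLF motif (36.4%, beside 29.2% of all 32851 promoters), 2 AP-1 (6.06%, beside 7.81%), 1 the forkhead motif (3.03%, beside 3.65%), 1 OCT (3.03%, beside 4.63%) and 0 SOX (beside 3.78%).

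Between KO and control a peak within 1000 bp of the start was present in 1 list and absent in the other for 3 genes, all in reprogramming. Foxr1 had such a peak in reprogramming KO alone, with a fold of 2.87 (−log10 q 7.46). Foxn1, a thymic epithelium factor, had peaks in the same interval in reprogramming control (1.83, −log10 q 1.54) and KO (2.04, −log10 q 2.33) and none in MEFs, and only the wider KO peak reached within 1000 bp of the start, so that its peak did not itself differ in presence. Over all genes 0.788% gained a start-site peak by the same count. Foxl1, a factor of the gut mesenchyme, had weak peaks of 1.42, 1.48 and 1.59 in MEF control, MEF KO and reprogramming control and none in reprogramming KO, beside 1.12% of all genes that lost one. The −log10 q of the Foxl1 peaks was 1.25 to 2.32, close to the threshold of the lists. In MEF no forkhead gene gained or lost a start-site peak, beside 0.588% and 0.574%.

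Among the 38 genes with a start-site peak in both control lists the fold was lower during reprogramming in 30 and higher in 8, beside 79.4% lower over all genes. The median log2 ratio was -0.21, against -0.24 over all genes. In the KO groups 31 of 37 were lower (beside 80.5%), 3 genes (Foxi1, Foxr1 and Foxn1) gained a start-site peak (beside 3.83%) and 1, Foxl1, lost it (beside 3.57%). In control cells Foxj2 went from 6.48 to 4.01 and Foxk1 from 4.39 to 2.82, the 2 that were lower by 1.5-fold, beside 17.4% of all genes. In KO cells these stood at 5.85 and 4.13, and 4.47 and 3.20, short of 1.5-fold, and 4 other genes were lower by that size (beside 18.2%), namely Foxc1 (4.00 to 2.39), Foxp4 (4.57 to 2.75), Foxe3 (5.16 to 3.29) and Foxn2 (4.67 to 2.99). Foxn4, a retinal and spinal cord factor, was the one higher by 1.5-fold, with 1.79 and 1.75 in the control and KO fibroblasts and 3.41 and 3.16 in the reprogramming cells, a log2 ratio of 0.94 between the control groups.

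By role, the FoxA starts had folds in MEF control from 1.93 at Foxa2 to 3.72 at Foxa3. Foxa2, an endoderm factor, stood at 1.93, 1.93, 2.07 and 2.11 in MEF control, MEF KO, reprogramming control and reprogramming KO, and Foxa3 at 3.72, 3.89, 3.53 and 3.51. Among the FoxO genes Foxo3 was the lowest in MEF control (2.80, 2.65, 2.48 and 2.48 in the same order) and Foxo6 the highest (4.73, 4.72, 3.40 and 3.55). The FoxP starts ran from Foxp2 (3.30, 3.13, 3.40 and 3.30) to Foxp3, the factor of regulatory T cells (5.07, 5.39, 5.50 and 5.07), whose peak also held the start of Ppp1r3f.

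In the broadly expressed group Foxn3 was the lowest (4.17, 4.03, 3.67 and 3.77) and Foxj2 the highest (6.48, 5.85, 4.01 and 4.13). Of the mesenchymal genes Foxd2 had the highest fold (4.92, 4.61, 3.65 and 3.30) and Foxl1 the lowest of those with a peak. Foxd3 had 2.78, 2.95, 2.68 and 2.54, and Foxh1 no peak. In the restricted group Foxj1, the regulator of motile cilia, was the highest (5.84, 5.42, 4.72 and 5.20) and Foxn4 the lowest of those with a peak in MEF control.

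**Figure D5:**
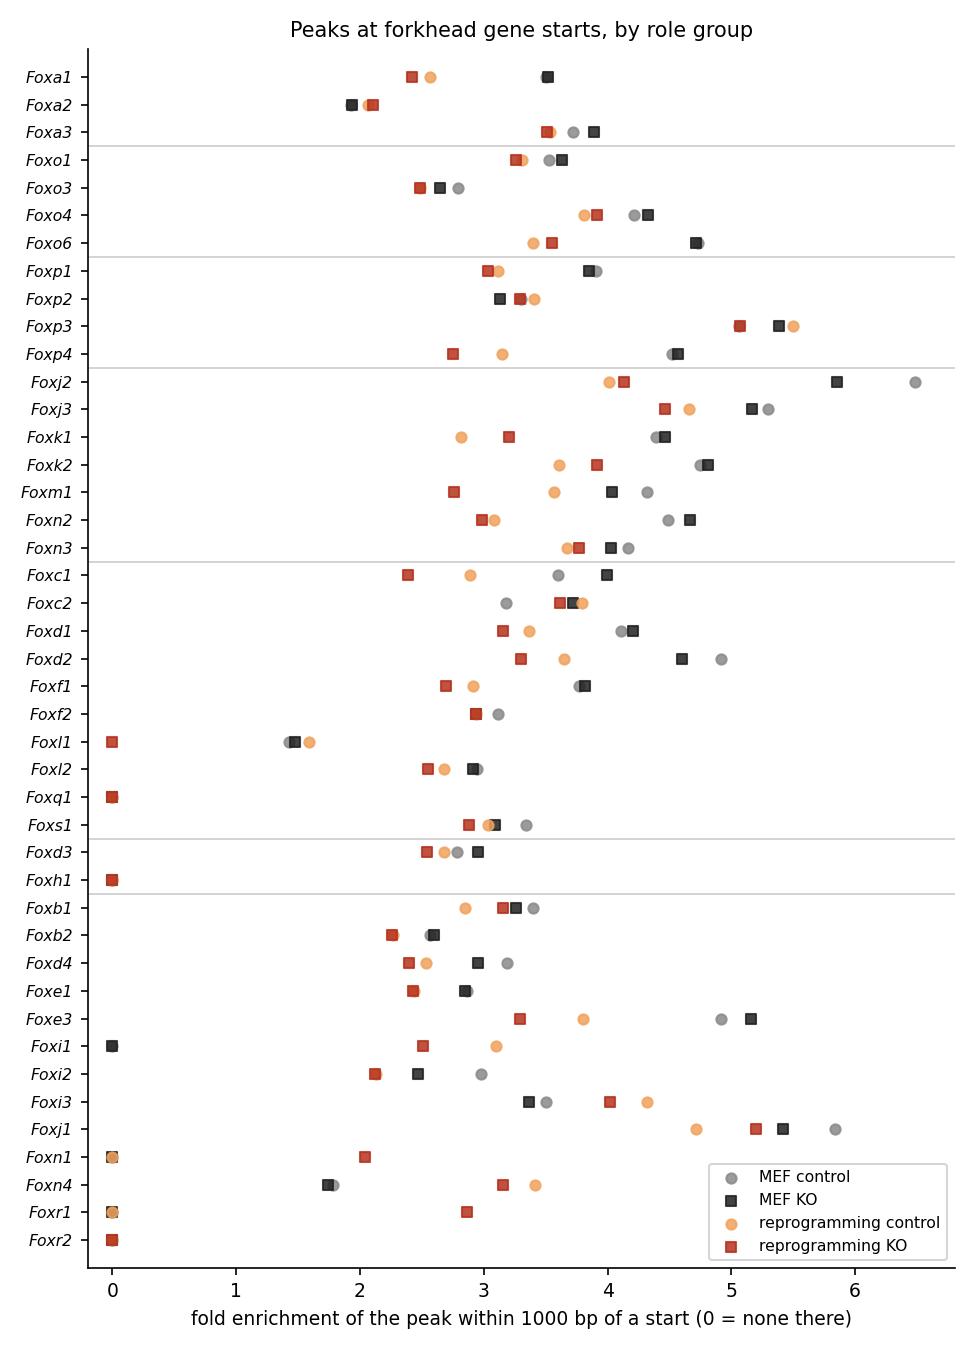
Fold enrichment of the start-site peak of 43 of the 44 forkhead genes (horizontal axis, 0 for no peak within 1000 bp of a start) in the 4 groups, 1 point per merged peak list. Horizontal lines part the role groups, from the top FoxA, FoxO, FoxP, broadly expressed, mesenchymal, early embryo and restricted genes. Foxj2 is highest in MEF control at 6.48, and Foxi1 has a peak in both reprogramming groups and in neither MEF group.

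Between KO and control the start-site folds moved little, with a median log2 ratio over the forkhead genes of -0.01 in MEF (20 lower and 18 higher) and -0.05 in reprogramming (27 lower and 11 higher). Over all genes the medians were -0.02 and -0.03, with 59.7% and 64.4% lower. No forkhead gene with both peaks differed by 1.5-fold, beside 0.0821% lower by that size over all genes in MEF and 0.0883% in reprogramming.

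Genes that act with the forkhead factors were counted as lists. All 19 FoxO regulators and targets, from Akt1 to the stress gene Sod2, had a start-site peak in every group. In reprogramming control against MEF control 14 of the 19 had a lower fold (beside 79.4% of all genes), with a median log2 ratio of -0.13 (beside -0.24), and 2 were lower by 1.5-fold (beside 17.4%), Sod2 (6.49 to 3.74) and the atrophy gene Fbxo32 (4.94 to 3.09). Their windows gained 101 and lost 98 of 347 intervals (29.1% and 28.2%, beside 33.9% and 32.4% of all). Of 10 Nodal pathway genes 9 had a start-site peak in the MEF groups and all 10 in the reprogramming groups. The one that gained it was Lefty1, a Nodal inhibitor, with folds of 2.47 in control and 2.55 in KO (4.04% of all genes gained one in control). Of the 9 with a peak in both control lists 6 had a lower fold during reprogramming, among them Nodal (3.65 to 2.64), and the median log2 ratio was -0.27. These windows gained 48 and lost 34 of 155 intervals (31.0% and 21.9%).

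The Hox and Sox genes, other large families of developmental factors, were counted in the same way. Of all intervals 33.9% were gained, 32.4% lost and 24.7% present in all 4 groups. The 39 Hox genes, which lie in compact clusters, gained 18 and lost 19 of 139 intervals (12.9% and 13.7%), with 64.0% present in all 4 groups. The 19 Sox genes gained 113 and lost 92 of 331 (34.1% and 27.8%), with 31.7% present in all 4 groups, beside 32.6% for the forkhead genes. The differences between families were not tested.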

How the data were processed

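The authors trimmed the Omni-ATAC-seq reads with cutadapt, aligned them with BWA to GRCm38.p6, filtered them (Picard, SAMtools, bedtools) for duplicates, mitochondrial and blacklisted sequence and proper pairs, and used MACS2 to call broad peaks after merging the 3 replicates of a group. The deposited peak lists give each peak's fold enrichment (a ratio) and its −log10 q. The deposited tables give raw read counts per library and a normalised signal (the count divided by a DESeq2 size factor) for intervals past the authors' threshold only, so the test over all intervals was not rerun. Their fold changes, p-values and means over all libraries were not used.

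Peaks of the 4 lists were merged where they touched. All 480 MEF and 1608 reprogramming intervals of the tables matched a merged interval. An interval was gained if the first list had a peak in it and the second none, lost in the reverse case, and higher or lower by 1.5-fold of the largest fold where both had one. Listed intervals were retested with edgeR 4.0.16 in R 4.3.3, without a replicate term, with size factors taken from the ratio of raw to normalised counts (0.630 to 1.46) and adjustment over 273256 intervals. The standard error is the log2 difference over the root of the F statistic. The scripts were tested on simulated data. Genes came from GENCODE M21, promoters from RefSeq (GRCm38.p6), and 0 of 273256 intervals ran past a chromosome end of the reference.

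The members, gene lists and motifs were chosen with earlier results of these data known. Genes were named by rule, namely all listed intervals in forkhead windows, genes with a start-site peak in some groups only, the highest and lowest start-site fold of each role group in MEF control, and the 10, 5 or 3 intervals per side with the highest fold. Genes singled out for their number of intervals, for having no start-site peak or one shared with another gene, for a 1.5-fold difference, or among the lists and markers were chosen after their values were seen. Deviations of same-numbered KO and control libraries had correlations of 0.04 to 0.21, all positive. Different-numbered KO and control libraries were not compared, so these values cannot show whether the numbers are pairs. The labels do not give pairs, and the numbers were not taken as such. Alternatives were other tools, scalings, windows and thresholds, and leaving out each library. In all, 1 forkhead gene was counted in the totals but not reported here by name.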

Additional observations from a re-analysis of the deposited data

How the results depend on the processing

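No listed interval fell in a forkhead window in MEF under any alternative. Only the 50 kb window could have changed this, since none of the 480 listed intervals lay in the 20 kb windows. In reprogramming the count of 3 was also 3 with DESeq2, a low-count filter, a 10 kb window and without any 1 library (3 to 3), and it was 3 with the replicate block. The authors chose the list with DESeq2 on these same libraries. A count of 3 under another tool, a filter, a block or with a library left out is therefore not independent support. With the replicate block the log2 differences were 2.24 at Foxn2, 1.54 at Foxp2 and 1.33 at Foxp1. Without 1 library the log2 difference ran from 2.12 to 2.40 at Foxn2, from 1.44 to 1.79 at Foxp2 and from 1.21 to 1.48 at Foxp1, and every adjusted p stayed under the threshold. The count was 1 with TMM or median-of-ratios factors over the list alone, which by construction centre the list, with Foxn2 at log2 differences of 1.27 and 1.26, Foxp2 at 0.61 and 0.60 and Foxp1 at 0.35 and 0.34, and 5 with a 50 kb window. No interaction between context and KO was fitted, since 0 of the 70 intervals in both tables lay in a forkhead window.

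Requiring a −log10 q of at least 5 gave 22.3% gained and 20.8% lost for reprogramming control against MEF control, 21.5% and 21.2% for the KO groups, 2.46% lost for MEF KO, and 3.69% gained and 4.46% lost for reprogramming KO. Over all intervals the same shares were 25.0% and 25.6%, 23.3% and 26.1%, 2.74%, and 2.48% and 4.55%. A reciprocal overlap of 50% gave, for the same 4 comparisons in gained and lost, 42.8% and 40.3%, 41.2% and 38.2%, 8.92% and 10.2%, and 12.9% and 13.5%, beside 44.6% and 43.0%, 42.6% and 42.2%, 6.85% and 7.996%, and 9.48% and 11.8% of all intervals. At 2-fold the higher and lower shares of shared intervals were 2.53% and 6.75% in control cells (beside 3.67% and 8.29%), 2.22% and 4.00% in KO cells (beside 3.57% and 7.56%), and 0% and 0% between reprogramming KO and control (beside 0.0190% and 0.000678%). Centring, chosen after seeing the data, gave 11.4% higher and 15.2% lower in control cells and 10.7% each in KO cells. Counts of start-site peaks stayed between 35 and 43 of 44. Depth limits the listed intervals, whose control libraries held 10 to 32 reads, and the peak lists carry no replicate error. The cause of the other shifts was not tested.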

Other observations

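A window of 50 kb added 2 listed intervals to the 3 of the 20 kb windows, both more open in reprogramming KO and both named after their values were seen. The wider windows held 996 intervals, so the 5 are 0.502% of them, beside 0.557% of all intervals called more open. The first lay on chromosome 12 from 57572651 to 57573957, near Foxa1, a factor that opens chromatin in endoderm and breast, with mean normalised counts of 36.2 in control and 102.4 in KO (log2 difference 1.54, standard error 0.18, edgeR adjusted p = 8.82e-14). The second lay on chromosome 3 from 52380582 to 52383809, near Foxo1, with 307.9 and 404.8 (0.40, standard error 0.08, edgeR adjusted p = 1.44e-04). Their list was selected on the same libraries.

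The Foxi1 and Foxd1 windows, chosen after their values were seen, held several peaks that the MEF lists lacked. In the Foxi1 window the 5 gained intervals had folds of 4.87, 3.55, 5.28, 3.10 and 5.59 in reprogramming control and 4.74, 3.03, 5.17, 2.51 and 6.32 in KO. In the Foxd1 window the 4 gained ones had 3.67, 4.18, 2.32 and 4.15 in control and 4.20, 4.27, 2.46 and 3.69 in KO, while the peak at the Foxd1 start had 4.11 in MEF control and 3.37 in reprogramming control. The highest MEF peaks of the Foxd1 window went the other way, from 6.63 in MEF control to no peak and from 5.92 to 3.72 in reprogramming control.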
